A study of Mus musculus with 8 samples.

Results

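The 9 core transcription factors of the heart (Gata4, Gata6, Nkx2-5, Tbx5, Tbx20, Hand2, Mef2c, Srf and Myocd) and Runx1 were followed in the mouse heart 24 hours after myocardial infarction (MI). These 10 genes were fixed by name. For each of them the array probes designed on its RefSeq transcripts were taken, and the brightest one that was detected (flagged well above background) on 4 or more arrays stood for the gene. This gave 14 probes for the 10 genes, of 34038 probes retained in all (15156 genes), and each of the 10 brightest probes was detected on all 8 arrays. The groups were 4 mice with permanent occlusion of the anterior interventricular artery and 4 sham-operated mice that underwent the same surgery with no ligature. All 8 mice were adult males of the C57BL\6 background, and their exact age is not given in the sources used here. Per the study's methods, both groups were operated on under isoflurane and then scanned by positron emission tomography, for which they received Acipimox and labelled glucose. Total RNA of each mouse was hybridised to 1 array. The labels name the tissue as ventricles, whereas the study's methods describe homogenised hearts and do not mention that the atria were removed, and no source states that infarcted and surviving tissue were separated.

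Gata4 and Gata6 (zinc finger proteins), Nkx2-5 (a homeodomain protein), Tbx5 and Tbx20 (T-box proteins), Hand2 (a basic helix-loop-helix protein) and Mef2c and Srf (MADS-box proteins) bind DNA together at the enhancers of sarcomere, ion channel and natriuretic peptide genes, and they build the heart in the embryo and maintain cardiomyocytes in the adult. Myocd, the coactivator myocardin, has no strong DNA binding of its own and acts through Srf, which recognises the CArG box. Runx1 is a Runt-domain factor known for its role in blood cell formation. It works as a dimer with Cbfb, and it is found in many leukocytes and in stressed cardiomyocytes.

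The promoters of Srf, Hand2 and Runx1 are shown because they hold recognition words of the factors described here other than the common E-box (CANNTG). RefSeq entries on the GRCm38.p6 build were at hand for 6 of the 10 genes (Hand2, Tbx20, Mef2c, Runx1, Nkx2-5 and Srf). Each sequence is the 250 bases before a transcription start, 5′ to 3′ on the strand of the gene. Capitals mark CArG boxes in Srf, GATA words (AGATAA or TGATAA on either strand) in Hand2 and an Nkx word (TNAAGTG on either strand) in Runx1. Srf lies at chr17:46556163-46556412 on the minus strand, Hand2 at chr8:57320733-57320982 on the plus strand, and the starts of Runx1 at chr16:92826075-92826324 (start 1, distal) and chr16:92697330-92697579 (start 2, proximal), both on the minus strand.
Srf: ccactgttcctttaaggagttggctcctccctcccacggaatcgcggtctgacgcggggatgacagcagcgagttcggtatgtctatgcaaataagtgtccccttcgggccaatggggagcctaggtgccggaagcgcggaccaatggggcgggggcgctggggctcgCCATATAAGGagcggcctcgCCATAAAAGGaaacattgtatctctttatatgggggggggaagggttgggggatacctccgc
Hand2: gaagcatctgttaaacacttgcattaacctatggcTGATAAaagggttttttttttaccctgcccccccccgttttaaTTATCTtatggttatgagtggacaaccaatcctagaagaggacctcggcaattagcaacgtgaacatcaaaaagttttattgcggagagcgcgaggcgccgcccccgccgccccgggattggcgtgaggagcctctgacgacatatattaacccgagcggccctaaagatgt
Runx1 start 1: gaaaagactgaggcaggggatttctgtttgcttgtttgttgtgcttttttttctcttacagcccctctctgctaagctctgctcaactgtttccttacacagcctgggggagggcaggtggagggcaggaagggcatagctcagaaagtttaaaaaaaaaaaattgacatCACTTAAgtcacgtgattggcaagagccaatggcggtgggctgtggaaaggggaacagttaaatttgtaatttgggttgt
Runx1 start 2: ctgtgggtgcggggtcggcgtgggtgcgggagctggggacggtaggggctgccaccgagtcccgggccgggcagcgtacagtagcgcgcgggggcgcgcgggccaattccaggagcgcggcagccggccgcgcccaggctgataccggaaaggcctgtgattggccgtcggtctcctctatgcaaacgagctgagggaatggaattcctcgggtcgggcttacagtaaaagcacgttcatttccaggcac

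The Srf promoter held 2 CArG boxes, 82 and 62 bases before the start, whereas 1.47% of 32851 promoters of this length held at least 1. The Hand2 promoter held 2 GATA words, 215 and 172 bases before the start, and such a word was found in 16.6% of all promoters. Start 1 of Runx1 held an Nkx word 80 bases before the start, against 10.1% of all promoters. It also held 3 E-boxes (CANNTG, the word of Hand2 and its relatives, not in capitals), a word found in 66.2% of all promoters. E-boxes were also found in Hand2 (2), in Nkx2-5 (1) and at start 1 (2) and start 3 (1) of Mef2c. Start 2 of Runx1 held none of the 7 motifs searched. The Runx word (TGTGGT or TGCGGT, 18.6% of all promoters), the T-box word (GGTGTGA, 3.33%) and the Mef2 site (2.92%) were found in none of the 9 entries of these genes. Both strands were searched, and no matches of different motifs overlapped. A match describes the letters of these windows and is not evidence of binding, and no match says nothing about the factor.

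Runx1 was higher after MI, and the 9 cardiac factors did not pass the test. Runx1 was thus 1 of 10 genes called at an adjusted p-value below 0.05 (limma with Benjamini-Hochberg adjustment over all 34038 probes), where 7.61% of all probes were called in either direction, 6.3% higher and 1.31% lower in MI. It was also the 1 gene called at more than 2-fold, where 3.48% of all probes were called, 3.07% higher and 0.405% lower. After 75th percentile scaling Runx1 was again the 1 member called, where 17.5% of all probes were called, 8.7% higher and 8.84% lower. Values below are log2 of the signal of the gene's probe after spike-in scaling, and differences are MI minus sham on that scale. The median difference of all retained probes was 0.12 after spike-in scaling and -0.02 after scaling each array to its 75th percentile, a shift of 0.14 between the scalings. The 75th percentile scaling also adds no constant before the logarithm, so a dim probe need not move by this shift. Fewer cells of a type and less RNA per cell cannot be told apart in homogenised tissue.

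Runx1 stood at 6.10, 5.74, 6.10 and 5.75 in the 4 sham mice and at 7.64, 7.62, 8.06 and 7.70 in the 4 MI mice. Each MI mouse lay above each sham mouse, and groups that did not overlap were found for 11.1% of the 33865 probes with a value in every mouse, 8.44% higher and 2.7% lower in MI. The mean was 5.92 ± 0.21 (SD, n = 4) in sham and 7.76 ± 0.20 in MI. The difference was 1.83 with a standard error of 0.21 (limma adjusted p = 5.58e-07), that is 3.56-fold with a 95% interval from 2.65 to 4.79. Measured from the median of all probes the difference was 1.72. The exact two-sided permutation test over the 8 mice gave p = 0.0286, the smallest value that its 70 splits allow.

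Both Runx1 probes moved the same way. The dimmer probe stood at 5.54, 5.54, 5.51 and 4.98 in sham and at 6.71, 6.45, 6.97 and 6.75 in MI. Its groups did not overlap either, and its difference was 1.33 (standard error 0.21, limma adjusted p = 9.9e-05). With the refitted constants described next it was 0.34 (adjusted p = 0.0405), and the call of this probe was lost on the first row of the slide alone (1.04, adjusted p = 0.283, 2 mice a group). The Runx1 signals were low, with a mean processed signal of 46.7 in sham and 216 in MI for the brightest probe, and at this brightness the size of the difference depended on the constant added before the logarithm. It was 0.68 when the spike-in model was refitted here with constants of 166 to 256 (against 3.16 to 19.6 in the authors' scaling). After normexp correction and quantile normalisation it was 1.18. It was 1.95 after 75th percentile scaling and 2.08 after a spike-in shift alone. These latter settings add no constant and differ from each other in scaling only. At any fold the call of the brightest probe held in all 24 alternatives, with adjusted p-values up to 0.00697, but with the refitted constants the difference was under 2-fold. On the first row of the slide alone (2 mice a group) the difference was 1.71, and on the second row it was 1.96.

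**Figure D1:**
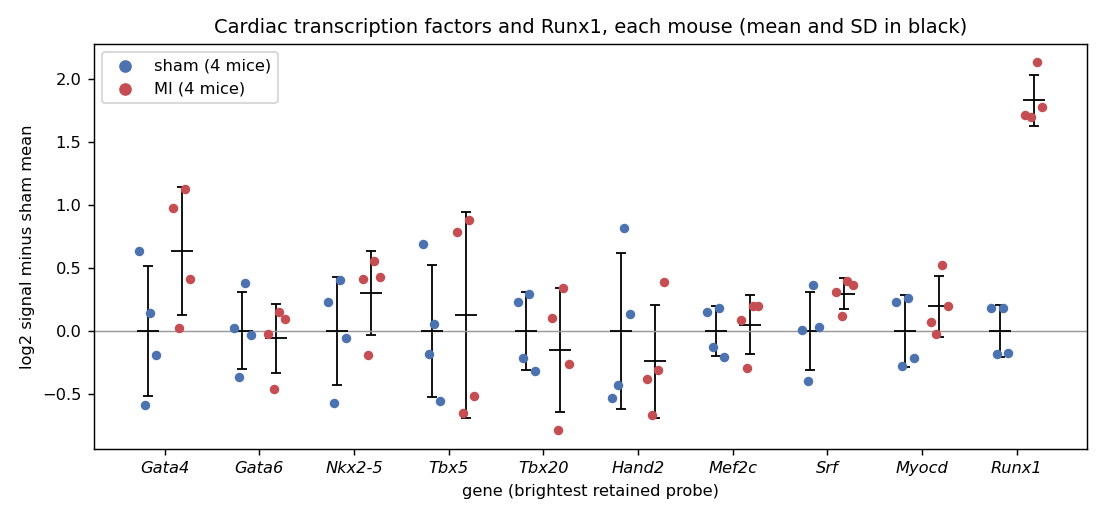
Log2 signal of the brightest probe of each gene in each mouse after spike-in scaling, minus the mean of the 4 sham mice of that gene (vertical axis), for 4 sham mice (blue) and 4 MI mice (red). Black bars show the group mean and SD. The 4 MI mice stand apart from the 4 sham mice for Runx1 (7.62 to 8.06 against 5.74 to 6.10 before the sham mean is subtracted), and the groups overlap for the other 9 genes.

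Among the GATA factors, Gata4, which drives natriuretic peptide and sarcomere genes and takes part in the hypertrophic response, had the largest difference of the 9 cardiac factors after spike-in scaling. It stood at 12.05, 10.82, 11.55 and 11.22 in sham and at 12.39, 11.43, 12.53 and 11.82 in MI. The highest MI mice, 3 and 1, lay above every sham mouse, but sham mouse 1 lay above MI mice 2 and 4. The difference was 0.64 (standard error 0.26, 95% interval 0.10 to 1.18), the limma adjusted p was 0.158, and the exact permutation p was 0.171. Without sham mouse 1 the difference was 0.85 and passed the test (adjusted p = 0.0406), while without any other single mouse it did not, the highest adjusted p being 0.413. After 75th percentile scaling it was 0.51 (adjusted p = 0.104). With a block for replicate number in limma, Gata4 was called (adjusted p = 0.0233), though whether the numbers mark pairs is not settled.

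Gata6, a close relative with overlapping function in the myocardium, was at 12.39, 12.003, 12.75 and 12.34 in sham and at 12.34, 11.91, 12.52 and 12.47 in MI. The groups lay on top of each other. The difference was -0.06 (95% interval -0.51 to 0.39, limma adjusted p = 0.916), and -0.18 (-0.43 to 0.06) after 75th percentile scaling. It turned to 0.07 without sham mouse 3 or without MI mouse 2.

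Nkx2-5, the homeodomain factor of the cardiac lineage, was at 13.03, 12.23, 13.20 and 12.74 in sham and at 13.21, 12.61, 13.35 and 13.23 in MI. In 3 of the 4 MI mice it was above the highest sham mouse, and MI mouse 2 lay inside the sham range. The difference was 0.30 (95% interval -0.18 to 0.78, limma adjusted p = 0.527).

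Tbx5, the T-box factor known from Holt-Oram syndrome, spread more between mice of a group than any other of the 10 genes, with a pooled SD of 0.69. It stood at 10.75, 9.87, 10.11 and 9.50 in sham and at 10.84, 9.41, 10.94 and 9.54 in MI, so that each group held both high and low mice. The difference was 0.12 (95% interval -0.51 to 0.75, limma adjusted p = 0.874), and -0.00 after 75th percentile scaling.

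Tbx20, a T-box factor needed for adult cardiomyocyte function, was read by 3 probes that disagreed in sign. The brightest was at 10.45, 10.003, 10.51 and 9.90 in sham and at 10.32, 9.42, 10.56 and 9.95 in MI, a difference of -0.15 (95% interval -0.65 to 0.34, limma adjusted p = 0.787). The dimmer probes, designed on another transcript, differed by 0.34 (adjusted p = 0.461) and 0.55 (adjusted p = 0.201). Their mean processed signals in sham were 64.7 and 61.5. The mean over the 3 probes differed by 0.25, and no probe passed the test, so no direction can be given for Tbx20.

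Hand2, which shapes the right ventricle in development, was at 10.21, 10.32, 11.56 and 10.88 in sham and at 10.36, 10.08, 10.43 and 11.13 in MI. Sham mouse 3 was the highest of the 8 mice, and without it the difference changed from -0.24 (95% interval -0.80 to 0.31, limma adjusted p = 0.681) to 0.03.

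Of the MADS-box factors, Mef2c, an activator of skeletal and cardiac muscle genes, was at 7.31, 7.03, 7.34 and 6.95 in sham and at 7.25, 6.87, 7.36 and 7.36 in MI. All 8 mice lay between 6.87 and 7.36. The difference was 0.05 (95% interval -0.38 to 0.48, limma adjusted p = 0.928) after spike-in scaling and -0.09 after 75th percentile scaling, so its sign depended on the scaling.

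Srf was at 11.88, 11.48, 12.24 and 11.91 in sham and at 12.18, 11.998, 12.27 and 12.24 in MI. Its MI mice were the more uniform (SD 0.12 against 0.31, not tested), and MI mouse 3 alone was above the highest sham mouse. The difference was 0.30 (95% interval -0.14 to 0.73, limma adjusted p = 0.478), and the other Srf probe gave 0.29 (adjusted p = 0.487). Myocd was at 11.55, 11.04, 11.59 and 11.11 in sham and at 11.40, 11.30, 11.85 and 11.52 in MI. The groups overlapped and the difference was 0.19 (95% interval -0.25 to 0.64, limma adjusted p = 0.68).

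A p-value that misses the threshold does not show that these factors were equal in both groups, and the intervals give the sizes that remained possible. After spike-in scaling the intervals of the 9 cardiac factors other than Gata4 all included 0, and that of Gata4 was the only 1 to pass beyond a 2-fold difference. After 75th percentile scaling the widest were those of Tbx5, from -0.74 to 0.73, and of Hand2, from -1.02 to 0.29.

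**Figure D2:**
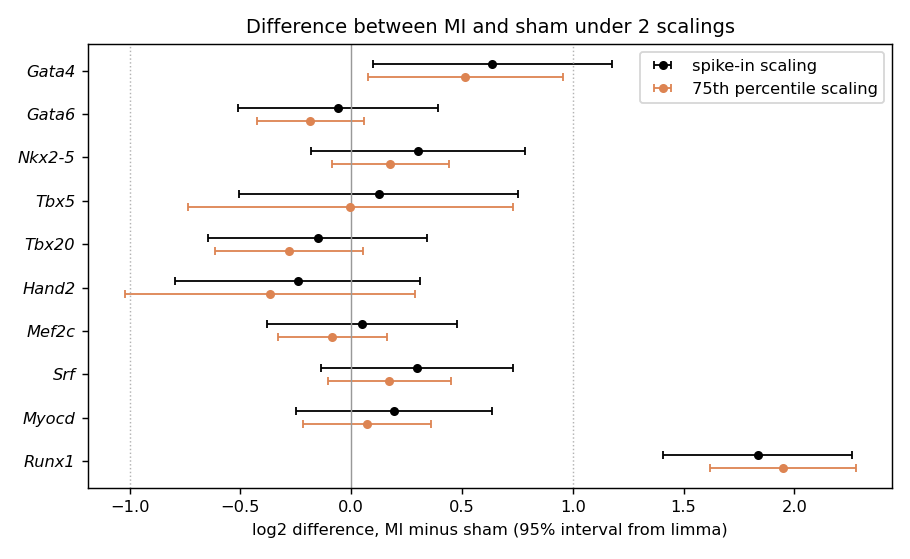
Log2 difference MI minus sham for each gene (horizontal axis) with its 95% interval from limma, after spike-in scaling (black) and after 75th percentile scaling (orange). Dotted lines mark a 2-fold difference in either direction. Runx1 lies at 1.83 and 1.95 with both intervals beyond 1, and Gata4 at 0.64 and 0.51.

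The cardiac factors also differed in how evenly they were expressed among mice of a group. After 75th percentile scaling, which removes the shift of whole arrays, the pooled SD was 0.11 for Gata6 and for Mef2c, 0.14 for Nkx2-5, 0.15 for Srf and 0.16 for Myocd. It was 0.20 for Runx1, 0.21 for Tbx20, 0.30 for Gata4, 0.48 for Hand2 and 0.55 for Tbx5. On this scale Tbx5 was 10.65 in sham mouse 1, 10.61 in MI mouse 1 and 10.65 in MI mouse 3, and between 9.41 and 10.24 in the other 5 mice. Gata4 was 11.95, 12.17 and 12.25 in those 3 mice, in the same order, and between 11.20 and 11.77 in the others. Hand2 went the opposite way, at 10.11, 10.13 and 10.15 in the 3 mice and between 10.41 and 11.38 in the others. The same 3 mice thus held the highest Tbx5 and Gata4 values and the lowest Hand2 values, and they came from both groups. Their arrays also had the largest shares of spots well above background (65.8%, 62.8% and 66.4%, against 58.6% to 62.4% in the other 5), whose part in this pattern was not tested. This pattern was noticed in the data and is given as a description.

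**Figure D3:**
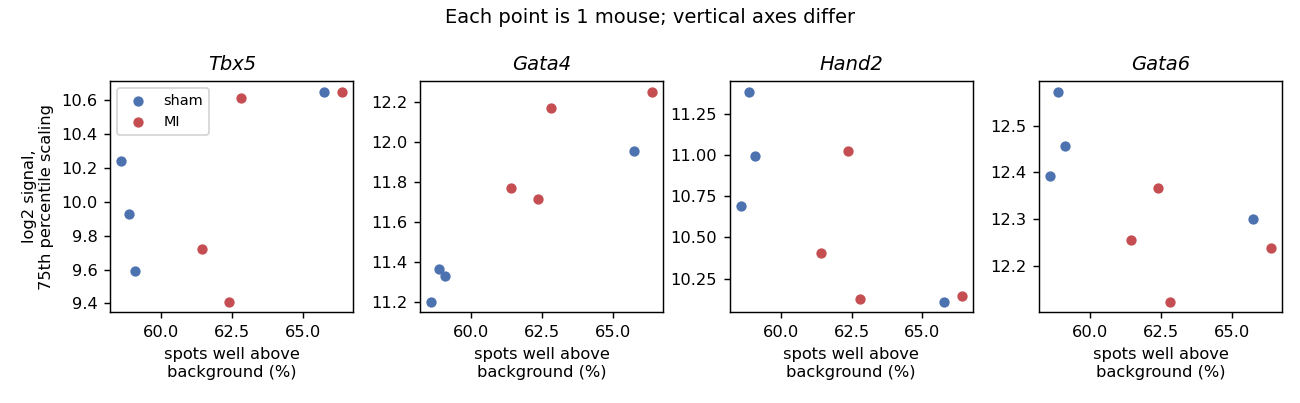
Log2 signal after 75th percentile scaling (vertical axes, which differ between panels) of Tbx5, Gata4, Hand2 and Gata6 against the percentage of spots well above background on the array of the same mouse, with sham mice in blue and MI mice in red. The arrays with the 3 largest percentages (62.8%, 65.8% and 66.4%) have the highest Tbx5 and Gata4 and the lowest Hand2 values.

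Other regulators of the heart were measured with a list of 25 genes, of which 23 were detected (Hand1 and Mef2b were not). At an adjusted p-value below 0.05, 1 was called higher and 1 lower, and the list's median difference was 0.03 beside 0.12 for all probes. Nfatc4, a calcineurin-dependent factor of the hypertrophic response, was at 9.82, 9.11, 9.78 and 9.54 in sham and at 10.53, 10.19, 10.88 and 10.10 in MI, a rise of 0.86 (limma adjusted p = 0.0162) with no overlap of the groups. The call was lost without sham mouse 2 (adjusted p = 0.0672) and without MI mouse 3 (0.0811).

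Hdac9, a class IIa histone deacetylase that holds Mef2 proteins in check, fell by 0.96 on the log2 scale (limma adjusted p = 0.0182). It was at 8.96, 8.997, 9.85 and 9.04 in sham and at 7.95, 8.08, 7.93 and 9.05 in MI. MI mouse 4 stood with the sham mice and sham mouse 3 above the other sham mice. The call was lost without sham mouse 3 (adjusted p = 0.081), MI mouse 1 (0.0649) or MI mouse 2 (0.0647), and with the refitted constants (0.157). The list held 1 called gene without sham mouse 3 or MI mouse 1. Tbx3, a T-box repressor of the conduction system, differed by -0.77 and did not pass the test (limma adjusted p = 0.0674), but did so without sham mouse 2 (0.00707) or MI mouse 3 (0.0273) and after 75th percentile scaling (0.0172). That scaling called 2 regulators higher and 4 lower, at a background of 8.7% of all probes higher and 8.84% lower.

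The 13 genes of Runx biology and blood cell regulation, 12 of them detected, had a median difference of 0.02. Here 1 was called higher and 1 lower, both at more than 2-fold. Spi1, the PU.1 factor of myeloid cells, stood at 5.20, 4.70, 3.82 and 4.40 in sham and at 6.23, 5.92, 6.29 and 6.06 in MI. It was well above background on all 4 MI arrays but on only 1 of the 4 sham arrays, so that its sham level lies close to the detection limit. It rose by 1.59 (limma adjusted p = 5.29e-05) with no overlap of the groups, but in the authors' normalized values, where undetected spots are missing, the difference was 0.93 (adjusted p = 0.105), and with the refitted constants it was 0.27 (adjusted p = 0.071).

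Runx1t1, a corepressor known as a fusion partner of Runx1 in leukaemia, stood at 8.55, 8.11, 8.24 and 7.84 in sham and at 7.27, 6.47, 7.29 and 7.19 in MI. It fell by 1.13 on the log2 scale (limma adjusted p = 0.00157), and the groups did not overlap. With the refitted constants it fell by 0.56 (adjusted p = 0.0347). Cbfb, the partner that Runx1 needs to bind DNA, differed by 0.02 (adjusted p = 0.978), and Runx3 by 0.20 (adjusted p = 0.669). Runx2 was not retained. Under 75th percentile scaling, 1 gene of the list was called higher and 2 were called lower. The genes whose values over the 8 mice were most like those of Runx1, of 14028 genes, were Ubash3b (Pearson's r = 0.999), Tubb6 (0.998) and Sh2d5 (0.997). They differed between MI and sham by 1.72, 2.14 and 3.95. The likeness describes 8 values that include the difference between the groups, and the same measure for Spi1 was 0.899.

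Of 21 cardiomyocyte genes known as targets of these factors, 4 were called higher, all at more than 2-fold, and none was called lower. The list's median difference was -0.02, and 10 of the 21 were higher at any size. The 4 genes belong to the fetal and stress programme of the heart. Nppb, the B-type natriuretic peptide, stood at 15.33, 16.49, 15.87 and 15.49 in sham and at 17.40, 17.62, 17.56 and 17.29 in MI, a rise of 1.67 (limma adjusted p = 1.54e-05). Acta1, the skeletal actin, rose by 1.27 (adjusted p = 0.00104) and Ankrd1, a stretch-responsive sarcomere protein, by 1.00 (adjusted p = 0.00197). The groups did not overlap for these 3 genes. Ankrd1 was only just above 2-fold (2.01-fold), and after 75th percentile scaling its difference was 0.88, under 2-fold.

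Nppa, the atrial natriuretic peptide, stood at 16.70, 17.87, 16.95 and 15.02 in sham and at 18.30, 17.78, 18.35 and 17.61 in MI. Sham mouse 2 was above MI mice 2 and 4, and sham mouse 4 was the lowest of all. The difference was 1.37 (adjusted p = 0.0156), and the call was lost after 75th percentile scaling (1.25, adjusted p = 0.147) and without MI mouse 2 (adjusted p = 0.0627). Without sham mouse 4 the difference was 0.83 (adjusted p = 0.0454). Myh6, Tnnt2 and Actc1, which encode further sarcomere proteins, did not pass the test and differed by -0.05 (adjusted p = 0.937), -0.02 (0.975) and 0.29 (0.491). With 75th percentile scaling 3 targets were called higher and 1 was called lower.

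Of 10 smooth muscle genes driven by Srf and Myocd, 9 were detected and 2 were called higher, with a median difference of -0.07. Acta2, the smooth muscle actin, stood at 13.53, 12.85, 12.86 and 13.10 in sham and at 14.42, 14.92, 15.03 and 13.80 in MI, a rise of 1.46 (limma adjusted p = 0.000237) with no overlap of the groups. Des, the muscle intermediate filament, rose by 0.79 (adjusted p = 0.026), a call that was lost with the refitted constants (0.0609). Only 1 gene of the list was called without sham mouse 2, sham mouse 4, MI mouse 1 or MI mouse 3. Tagln and Myh11, further contractile genes of smooth muscle, differed by -0.07 (adjusted p = 0.895) and -0.27 (0.636). Of the 9 detected genes, 2 were called higher and 1 was called lower after 75th percentile scaling.

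Srf also controls cytoskeletal and immediate early genes, with other cofactors than Myocd. Of 14 such genes 6 were called higher and none lower, 13 were higher at any size, and the median difference was 0.67 beside 0.12 for all probes. Scaled to the 75th percentile, 7 were called higher, and the median was 0.55 beside -0.02. Junb, an AP-1 subunit, stood at 6.81, 6.53, 7.32 and 7.45 in sham and at 7.98, 7.97, 8.61 and 8.18 in MI. It rose by 1.16 (limma adjusted p = 0.00153) with no overlap of the groups, and by 0.57 (adjusted p = 0.0454) with the refitted constants. Egr2, a zinc finger factor, rose by 1.00 (adjusted p = 0.0306), but its groups overlapped and the call was lost without sham mouse 1, sham mouse 2, MI mouse 2 or MI mouse 4 (adjusted p up to 0.104) and after 75th percentile scaling (0.141). The other 4 were Cnn2 (0.83), Zyx (0.81), Actb (0.80) and Tpm4 (0.68), all parts of the actin cytoskeleton. Cnn2 was called without each single mouse in turn. Zyx and Actb were not called without sham mouse 2, sham mouse 4 or MI mouse 3 (adjusted p up to 0.0783 and 0.067). Without MI mouse 4, Zyx and Actb were not both called. Tpm4 was called only without sham mouse 3 or MI mouse 2 (otherwise up to 0.149). Fos (0.40, adjusted p = 0.62) and Egr1 (0.19, adjusted p = 0.823) did not pass the test. The number of genes called was 2 without sham mouse 2, 3 without sham mouse 4, MI mouse 3 or MI mouse 4, and 9 without sham mouse 3.

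**Figure D4:**
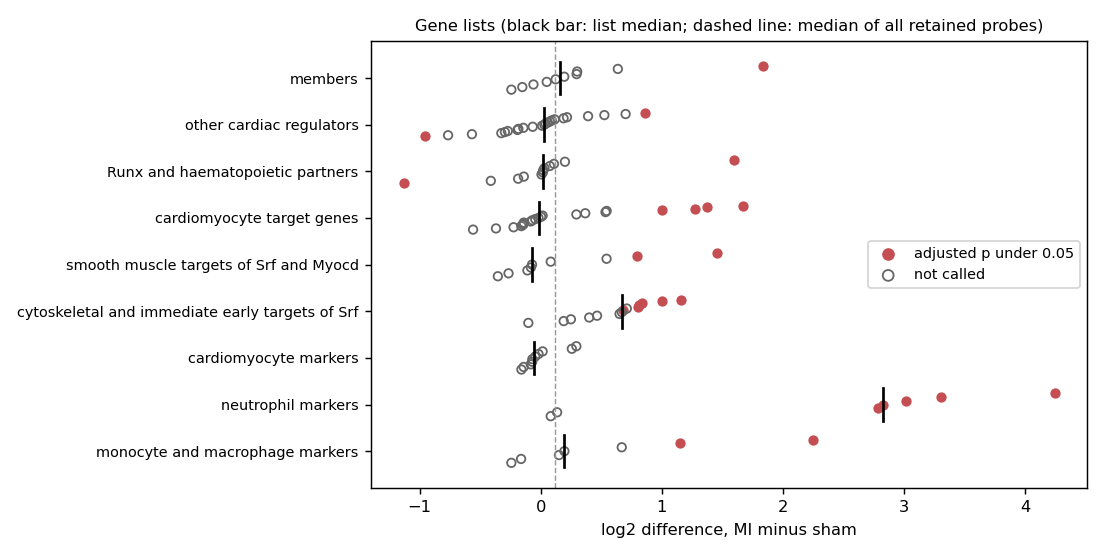
Log2 difference MI minus sham after spike-in scaling (horizontal axis) of each detected gene of 9 lists (rows, in order of size within a row), with genes at an adjusted p below 0.05 in red and others as open circles. Black bars are list medians (0.67 for the cytoskeletal and immediate early targets of Srf, 2.82 for neutrophil markers and -0.06 for cardiomyocyte markers) and the dashed line is the median of all retained probes, 0.12.

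Some markers of other cells were called higher after MI. Of 8 neutrophil markers 7 had a probe and were detected, and 5 were called higher, with a median of 2.82. They were Retnlg (4.24), Cxcr2 (3.31), S100a8 (3.02), Mmp8 (2.82) and S100a9 (2.79), while Csf3r (0.08, limma adjusted p = 0.878) and Itgam (0.14, adjusted p = 0.817) were not called. The summed signal of the list ranged from 80524 to 123638 in sham and from 230959 to 352739 in MI. Of 7 detected monocyte and macrophage markers, Cd14 (2.25) and Ccr2 (1.15) were called higher. Of the 7, 5 were higher at any size, and the list's median was 0.20 beside 0.12 for all probes. The summed signal of this list ranged from 12508 to 19537 in sham and from 16746 to 23873 in MI. Called higher were also 2 of 6 platelet markers, Ppbp (1.08) and Itga2b (0.94), 2 of 4 detected T cell markers, Cd3d (0.90) and Lck (0.65), and 1 of 3 detected B cell markers, Cd79b (0.73). Itga2b was dim, its groups overlapped, and its call was lost after 75th percentile scaling (1.06, adjusted p = 0.114), with the refitted constants (0.16, 0.391), in the authors' normalized values (0.61, 0.2) and without sham mouse 3 or any 1 of MI mice 1, 2 and 3. With the refitted constants Cd3d (0.18), Lck (0.19) and Cd79b (0.31) were no longer called, and Cxcr2 (1.495) and Mmp8 (1.32) were called at a smaller size. Cd3g and Cd8a of the T cell list and Pax5 of the B cell list had a probe but were not detected on 4 or more arrays. For Ly6g and Cd68 no probe could be named through RefSeq accessions. The part of these cells in the Runx1 and Spi1 values was not tested.

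As for the resident cells, none of the 10 cardiomyocyte markers was called, with a median of -0.06 and a summed signal of 2553070 to 3631260 in sham and 2344120 to 3548860 in MI. Scaling every array to these 10 markers left Runx1 at 1.84 and Gata4 at 0.64. None of 8 fibroblast markers (median -0.41), 7 endothelial markers (0.17) or 2 detected erythroid markers (0.21) was called. Of 7 mural cell markers Acta2 and Cspg4 (0.89, limma adjusted p = 0.0202) were called higher. The call of Cspg4 was lost with the refitted constants (limma adjusted p = 0.11). Of 5 epicardial markers 1 was called higher, Aldh1a2 (1.18, limma adjusted p = 0.00158), the retinoic acid synthesising enzyme.

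The tissue was labelled as ventricles, and 5 genes of atrial cardiomyocytes were listed after the data had been seen. Sln, Myl4, Myl7 and Dkk3 were detected on all 8 arrays and were lowest in sham mouse 4, whereas Bmp10 was dim (processed signals of 9.09 to 78.7) and detected on 6 arrays. Sln, the atrial regulator of the calcium pump, was at 13.99, 15.80, 14.46 and 8.79 in sham and at 14.86, 13.76, 14.89 and 14.41 in MI. Myl7, the atrial light chain, was at 12.94, 14.54, 13.27 and 8.52 in sham and at 14.40, 13.18, 14.14 and 12.96 in MI. Sham mouse 4 was far below the others in both, and it was also the lowest mouse for Nppa. Their part in the values of Nppa, Tbx5 and Gata4 was not tested. None of the 5 atrial genes was called, and without sham mouse 4 the Runx1 difference was 1.77.

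On the whole arrays, 58.6% to 66.4% of spots were well above background, and arrays of the same group correlated at 0.991 to 0.996 (Pearson's r over 29805 probes). All 8 arrays lay on 1 slide in 2 rows of 4, with 2 sham and 2 MI mice in each row, and came from 1 scan. Of the 34038 probes, 2590 were called, 2144 higher and 446 lower in MI. The 75th percentile scaling called 2963 higher and 3010 lower, so the balance of directions depended on the scaling. The number of arrays, 4 a group, limits the precision of every value given here.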

How the data were processed

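RNA of heart tissue, labelled as ventricles, of 4 sham and 4 MI mice was hybridised in 1 colour to Agilent SurePrint G3 arrays. The deposited scanner files hold Feature Extraction 11.0.1.1 intensities, background-subtracted per the file headers, and the deposited series table holds the authors' normalized log2 values, made with limma and vsn on spike-in probes, with spots not above background removed. Scale and additive constant of each array were recovered from the authors' log2 values against the processed signal intensities (largest misfit 6.37e-09) and applied to all spots. Control and outlier spots were left out and spots of a probe averaged. Of 55681 probes, the 34038 well above background on at least 4 arrays were kept, as in the methods. MI was compared with sham in limma 3.58.1 (R 4.3.3), with no covariates and Benjamini-Hochberg adjustment at 0.05, and single values by exact permutation in Python 3.11.15. The fit was tested on simulated data. SAM was not rerun here. Probes were named through RefSeq accessions (26582 had 1 symbol). Of the listed genes, 2 are not reported here. The members and lists were chosen with earlier results of these data known. Beside all members, the text names listed genes called at more than 2-fold, up to 3 genes with the smallest adjusted p where a list had none, the 3 genes most like Runx1, and, after their values were seen, further genes that make up a small count or are well-known list members. No source ties the samples to separate cages or days. The limma p-values set the group difference against the spread between mice, estimated with information from all probes. With 1 array per mouse, that spread includes array noise.

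Alternatives were the spike-in model fitted here, a spike-in shift alone, 75th percentile and quantile scaling, normexp with offset 50, the authors' values, other detection filters, the mean over probes, an unmoderated test, blocks for replicate number or slide row, each mouse left out and, chosen after seeing the data, each slide row alone and scaling to cardiomyocyte markers.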

Additional observations from a re-analysis of the deposited data

Results flagged for a closer look

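In 296 groups of 4 mice (the sham and the MI group of each of 148 detected genes, the 10 members and all listed genes), 13 held a mouse whose distance from the nearest of the other 3 took up more of the group's range than Dixon's 95% critical value allows, where chance gives about 1 in 20, or 14.8. None of the 10 members was among them. In log2 signal after spike-in scaling, Hdac9 was 9.85 in sham mouse 3 (others 8.96 to 9.04) and 9.05 in MI mouse 4 (others 7.93 to 8.08). Runx1t1 was 6.47 in MI mouse 2 (others 7.19 to 7.29), and Ryr2 was 13.45 in the same mouse (others 13.89 to 13.98). Cd14 was 11.74 in MI mouse 1 (others 12.73 to 12.82). Slc4a1 was 8.03 in MI mouse 4 (others 7.11 to 7.23), and Myh7 was 14.68 in that mouse (others 13.46 to 13.62). In MI mouse 2, Mrtfb was 10.58 (others 11.08 to 11.10), Cbfa2t3 was 9.72 (others 10.27 to 10.31), Col1a2 was 11.87 (others 13.09 to 13.18) and Tek was 8.49 (others 9.07 to 9.13). Bmp10 was 6.29 in sham mouse 2 (others 4.49 to 4.60), and Gata5 was 10.07 in sham mouse 3 (others 9.75 to 9.80). MI mouse 2 thus accounted for 6 of the 13, and without it the Runx1 difference was 1.88.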

How the results depend on the processing

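Runx1 kept its direction and its call at any fold in all 24 alternatives run. No member was called at more than 2-fold (0) with the spike-in model fitted here. Depth does not limit arrays, but dim probes do. Runx1 was dim in sham mice though well above background on all 4 sham arrays, and Spi1 was well above background on only 1 of them. With 2 mice a group, as on 1 slide row, a lost call says nothing about stability.

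Over all probes, 2590 were called at any fold and 1184 at more than 2-fold. At any fold the count was 1271 with the spike-in model fitted here, 5973 after 75th percentile scaling, 6173 after quantile normalization, 7057 after normexp and quantile, 990 with no detection filter, 749 with the unmoderated test, 523 on slide row 1 and 1380 on slide row 2. At more than 2-fold it was 333 with the spike-in model fitted here, 537 after normexp and quantile, 578 with the unmoderated test and 523 on slide row 1. Without single mice it ranged from 1883 to 3213 at any fold and from 1046 to 1461 at more than 2-fold.

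Counts called at any fold in the gene lists changed most. Other cardiac regulators numbered 6 after 75th percentile scaling, 5 after quantile normalization, 9 after normexp and quantile, 4 when scaled to cardiomyocyte markers, and 0 with the spike-in model fitted here, a spike-in shift alone, no detection filter, the unmoderated test or either slide row alone. Runx and haematopoietic partners numbered 1 with the spike-in model fitted here, the authors' values, detection on all 8 arrays, undetected spots missing or either slide row alone, and 0 with the unmoderated test. Cardiomyocyte targets numbered 2 with the unmoderated test and on slide row 1. Smooth muscle targets numbered 1 with the spike-in model fitted here, a spike-in shift alone, no detection filter and either slide row alone, and 0 with the unmoderated test. Cytoskeletal and immediate early targets numbered 2 with a spike-in shift alone, 1 with no detection filter, and 0 with the unmoderated test and on either slide row alone. Without single mice the ranges were 1 to 2 for members, 1 to 3 for other regulators, 2 to 2 for Runx partners, 3 to 4 for cardiomyocyte targets, 1 to 2 for smooth muscle targets and 2 to 9 for cytoskeletal targets. The unmoderated test kept the call of Runx1 and lost those of Spi1, Runx1t1, Nfatc4, Hdac9, Nppa, Acta1, Acta2, Egr2 and Junb. The cause of these changes was not tested.

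The signs that turned were of differences that had not passed the test. Most were small, but that of Sln was 1.22, that of Fos 0.40, that of Bmp10 0.37 and that of Myh11 -0.27. Tbx5 was -0.0041 after 75th percentile scaling and -0.19 on slide row 1. Tbx20 was 0.25 as the mean over probes and 0.049 on slide row 2. Mef2c was -0.085 after 75th percentile scaling, -0.13 after quantile normalization, -0.10 after normexp and quantile and -0.11 on slide row 1. Slc4a1 was 0.083, Sln -0.59, Bmp10 -0.58, Cbfb -0.089, Myh6 0.043 and Tnnt2 0.088 on slide row 1. On slide row 2 Myh11 was 0.24, Fos -0.42, Egr1 -0.35, Csf3r -0.025 and Itgam -0.078. Cbfb was -0.11 and Csf3r -0.042 after 75th percentile scaling, Cbfb -0.061 and Myh6 0.020 after quantile normalization, and Cbfb -0.036, Tnnt2 0.017 and Bmp10 -0.0029 after normexp and quantile. Cd79a was 0.21, and -0.20 in the authors' values and with undetected spots missing. Without single mice the differences ranged from -0.18 to 0.073 for Gata6, -0.13 to 0.38 for Tbx5, -0.32 to 0.061 for Tbx20, -0.45 to 0.031 for Hand2, -0.020 to 0.16 for Mef2c, -0.0010 to 0.47 for Cd4, -0.30 to 0.067 for Slc4a1, -0.27 to 2.06 for Sln, -0.075 to 0.15 for Cbfb, -0.14 to 0.073 for Myh6, -0.10 to 0.085 for Tnnt2, -0.15 to 0.049 for Tagln, -0.11 to 0.57 for Egr1, -0.031 to 0.16 for Csf3r, -0.032 to 0.36 for Itgam and -0.027 to 0.81 for Bmp10.

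Replicate numbers recur in both groups. Deviations from the group means correlated between mice of the same number at 0.26, 0.23, 0.04 and 0.01. Between mice of different numbers the correlations ran from -0.29 to 0.32, the highest between sham mouse 1 and MI mouse 3. These values do not settle whether the numbers mark pairs, and the main test did not use them as pairs. With the replicate block, 4895 probes were called at any fold, 2 members (Runx1 and Gata4, whose adjusted p was 0.0233) and 4 other cardiac regulators.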
